A study of Mus musculus with 6 samples.

Results

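The mRNAs of the collagen chains, the laminin chains and the integrin subunits were examined in MLE12 cells. Members were taken by gene name alone, as every protein-coding gene of the count table named as a collagen chain (*Col*), a laminin α, β or γ chain (*Lama*, *Lamb*, *Lamc*) or an integrin α or β subunit (*Itga*, *Itgb*). This gave 81 of the 54532 genes, of which 22046 were protein coding, with 44 collagens, 11 laminins and 26 integrins. MLE12 is an immortalized mouse lung epithelial cell line, labelled here as C57BL/6J, and all 6 libraries came from it. The study knocked down *Idh3α*, a subunit of the mitochondrial isocitrate dehydrogenase, together with *Slc25a1*, the mitochondrial citrate carrier, to ask what citrate held in the mitochondria does to these cells. The Ctrl shRNA group (n = 3) received a control lentivirus, labelled as an empty vector, at an MOI (infectious particles added per cell) of 50. The knockdown group (n = 3) received 2 lentiviruses, Idh3α shRNA and Slc25a1 shRNA, each at an MOI of 50, so the knockdown and the larger total dose of virus cannot be told apart. Both groups had their medium changed at 16 h and were harvested after 80 h more in culture. The labels do not say whether the replicates were separate infections, and the p-values measure the spread between these libraries.

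The libraries held 27273502 to 28535653 counts each. Ctrl shRNA replicate 2 stood apart from the other libraries. Its TMM scaling factor was 0.711, against 1.05 to 1.09 in the others, 16681 genes had a count in it against 19902 to 23147, and mitochondrially encoded genes took 6.49% of its counts against 1.57% to 1.80%. The main comparisons are therefore given with and without it. The targeted mRNAs were lower in every knockdown library, with *Slc25a1* at 103, 98.7 and 108 CPM (counts scaled to the TMM-normalized library size) in Ctrl shRNA cells and 68.9, 69.6 and 63.0 CPM after knockdown. *Idh3a* stood at 79.8, 137 and 93.0 CPM against 58.5, 57.9 and 55.5 CPM. Of 15 epithelial and alveolar type 2 markers, 7 reached a mean of 1 RPKM (CPM per kilobase of gene length) in the controls, led by *Krt8* and *Nkx2-1*, while *Sftpd* had no count. Of the mesenchymal markers 1 of 12 reached that level, the proteoglycan gene *Dcn*, and *Postn* and *Tcf21* had no count. The summed RPKM of the mesenchymal list was 55.8, 209 and 61.6 in the controls and 51.9 to 55.6 in the knockdown. Nearly all of it was *Dcn* (54.9, 207 and 60.7 RPKM in the controls), so its high value came from Ctrl shRNA replicate 2 alone. For endothelial markers 1 of 8 reached 1 RPKM (*Tek*) and for leukocyte markers 1 of 11 (*Cd68*), with *Ptprc* at 0 counts. The summed RPKM of the epithelial list was 349 to 362 in the controls and 303 to 330 in the knockdown, that of the endothelial list 7.80 to 9.78 and 6.78 to 7.03, and that of the leukocyte list 1.48 to 1.64 and 1.95 to 2.21, each without overlap. Of all genes tested, 14.7% were higher and 10.7% lower without overlap. The endothelial sum was mostly *Tek* (mean 8.45 against 6.77 RPKM) and the leukocyte sum mostly *Cd68* (1.42 against 2.01 RPKM), so neither is read as a shift of a cell type. Within the epithelial list *Sftpc*, the surfactant protein C gene, was at 42.6, 94.1 and 49.2 RPKM in the controls, highest in Ctrl shRNA replicate 2, and at 34.7, 27.6 and 26.3 RPKM in the knockdown. *Nkx2-1* and *Epcam* were also lower in every knockdown library. *Etv5* (6.72, 5.74 and 5.64 against 9.62, 8.90 and 9.24 RPKM), *Cdh1* and the low *Napsa* were higher in every one. *Krt8*, *Abca3* and *Sftpb* overlapped, so the list did not move in a single direction. The part of these lists in the results was not tested.

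Epithelial cells rest on a basement membrane, a sheet built mainly of a laminin network and a collagen IV network. Laminins are secreted as an α, a β and a γ chain joined together, and collagen IV chains are wound into helical protomers in a fixed choice of combinations. Integrins are cell surface receptors made of an α and a β subunit that bind these matrix proteins and join them to the cytoskeleton. Fibrillar collagens, in contrast, are made mainly by fibroblasts. In the lung, the alveolar basement membrane carries collagen IV and laminins with the laminin α5 chain, and the integrins of the αv group can also activate latent TGF-β.

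The collagen IV genes lie in head-to-head pairs, and their position was read from the deposited coordinates (GRCm38). On chromosome 8, *Col4a1* (11198423 to 11312826, minus strand) and *Col4a2* (11312805 to 11449287, plus strand) shared 22 bases at their 5′ ends. On chromosome 1, *Col4a4* (82448423 to 82586849, minus strand) and *Col4a3* (82586921 to 82722059, plus strand) were 71 bases apart. On chromosome X, *Col4a6* (141165403 to 141474076, minus strand) and *Col4a5* (141475385 to 141689234, plus strand) were 1308 bases apart. The 250 bases before the annotated start (RefSeq, GRCm38.p6) are shown for *Col4a1* (chr8:11312827-11313076, minus strand) and *Col4a2* (chr8:11312555-11312804, plus strand), which stayed in a nearly fixed ratio in all libraries. They are also shown for *Col4a5* (chrX:141475169-141475418, plus strand) and *Col4a6* (chrX:141474077-141474326, minus strand), of which *Col4a5* took a larger share of the collagen IV mRNA in every knockdown library, and for *Itga3* (chr11:95076715-95076964, minus strand), the integrin α subunit with the most marked difference among those at a high level. Capitals mark CCAAT (the CCAAT box), GGGCGG (the GC box) or TATAAA (the TATA box), searched on both strands, so that ATTGG and CCGCCC are the reverse complements of the first and second.
Col4a1: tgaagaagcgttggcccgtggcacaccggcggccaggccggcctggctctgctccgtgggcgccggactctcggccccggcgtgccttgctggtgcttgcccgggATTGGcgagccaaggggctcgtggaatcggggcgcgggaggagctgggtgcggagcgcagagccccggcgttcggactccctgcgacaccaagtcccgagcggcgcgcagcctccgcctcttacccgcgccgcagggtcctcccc
Col4a2: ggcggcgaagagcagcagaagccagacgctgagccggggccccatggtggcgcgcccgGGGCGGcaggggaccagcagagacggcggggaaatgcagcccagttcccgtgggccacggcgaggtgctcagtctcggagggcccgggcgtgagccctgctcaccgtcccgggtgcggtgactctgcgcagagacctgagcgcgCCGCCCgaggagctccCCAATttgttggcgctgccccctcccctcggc
Col4a5: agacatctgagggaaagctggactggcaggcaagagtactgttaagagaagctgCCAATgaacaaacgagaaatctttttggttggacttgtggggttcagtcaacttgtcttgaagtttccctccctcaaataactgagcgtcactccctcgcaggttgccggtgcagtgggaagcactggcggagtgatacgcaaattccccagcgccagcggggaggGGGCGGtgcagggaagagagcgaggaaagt
Col4a6: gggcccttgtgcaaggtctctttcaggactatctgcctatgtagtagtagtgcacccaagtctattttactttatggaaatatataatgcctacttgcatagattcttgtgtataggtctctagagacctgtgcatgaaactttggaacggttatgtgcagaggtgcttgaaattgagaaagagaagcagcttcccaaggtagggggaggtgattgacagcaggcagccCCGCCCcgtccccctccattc
Itga3: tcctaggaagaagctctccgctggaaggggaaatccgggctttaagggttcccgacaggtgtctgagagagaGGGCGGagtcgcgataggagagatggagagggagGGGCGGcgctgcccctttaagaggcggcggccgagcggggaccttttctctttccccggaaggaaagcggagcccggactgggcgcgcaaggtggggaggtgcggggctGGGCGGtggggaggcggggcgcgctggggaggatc
The *Col4a1* window held a CCAAT motif and no GGGCGG, and the *Col4a2* window, which lies inside the *Col4a1* gene, held 1 CCAAT and 2 GGGCGG. The *Itga3* window held 3 GGGCGG motifs and neither of the others, and none of the windows shown held TATAAA. Of the 81 members 58 had an entry in the promoter table. GGGCGG was found before a start of 50% of these against 35.4% of all 27025 genes in the table, CCAAT in 29.3% against 37.5%, and TATAAA in 8.62% against 14.3%. The motif of NF-κB, searched by its consensus, was found in 5 of the 58 (8.62%, against 4.46% of all genes) and in 0 of the 22 that reached a mean of 1 RPKM in the controls. These are matches of letters only.

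At baseline, the most abundant mRNAs of these families in MLE12 cells encoded collagen IV and laminin chains and the integrin subunits β1 and β5. In the Ctrl shRNA libraries 29 of the 81 members reached a mean of 1 RPKM, with 15 collagens, 5 laminins and 9 integrins. Of these, 14 reached 10 RPKM and 6 reached 100 RPKM, namely *Itgb1*, *Col4a1*, *Col4a2*, *Col4a5*, *Lamb2* and *Itgb5*. For 52 members the counts sufficed for a test (25 collagens, 9 laminins and 18 integrins). Of the other 29, the highest total over all libraries was 39 counts (*Col1a2*), and 8 had no count in any library.

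Among the collagens, the network-forming chains of collagen IV took the first 5 places by level. *Col4a1* had a mean of 187 ± 17.7 RPKM (SD, n = 3), *Col4a2* 149 ± 17.0 RPKM and *Col4a5* 122 ± 9.23 RPKM. The levels of *Col4a4* (64.7 ± 6.15 RPKM) and *Col4a3* (27.7 ± 2.51 RPKM) were lower, and *Col4a6* was at 4.01 ± 0.359 RPKM. The α3, α4 and α5 chains are known to form a collagen IV protomer of their own, and all of their mRNAs were present. Next came *Col12a1* (10.3 ± 0.794 RPKM) and *Col16a1* (5.11 ± 0.298 RPKM), both of the FACIT class that associates with fibrils. Fibrillar collagens were low. *Col1a1*, a chain of type I collagen, was at 3.18 ± 0.248 RPKM, while its partner *Col1a2* had 5, 0 and 16 counts in the controls and 8, 5 and 5 counts in the knockdown. *Col3a1* had no count in any library, which allows up to 0.0969 to 0.152 CPM per library (3 counts, counting error only). *Col17a1*, the hemidesmosome collagen, had 21 counts in all.

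The laminin α and β chain classes were each dominated by a single mRNA. *Lama5* had a mean of 77.9 ± 7.79 RPKM (SD, n = 3), *Lamb2* 107 ± 11.0 RPKM and *Lamc1* 99.3 ± 7.60 RPKM in the controls. The RPKM ranges of *Lamb2* and *Lamc1* overlapped, while *Lama5* was below both in every control. *Lama5* made up 99.5 ± 0.127% of the summed RPKM of the α chains and *Lamb2* 95.5 ± 0.392% of the β chains. *Lamb1* was at 4.95 ± 0.748 RPKM. *Lama3* and *Lamb3*, laminin chains of stratified epithelia, were at 0.314 ± 0.125 and 0.179 ± 0.0538 RPKM. The endothelial and muscle chains *Lama4* and *Lama2* had 4 and 6 counts over all libraries.

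Among the integrins, *Itgb1*, the β1 subunit shared by most matrix receptors, had the highest level at 294 ± 12.4 RPKM (SD, n = 3). It was followed by *Itgb5* (100 ± 9.39 RPKM), *Itga3* (59.7 ± 5.67 RPKM) and *Itgav* (26.7 ± 2.37 RPKM). With β1, α3 forms a receptor for laminins that carry the α5 chain, and αv with β5 binds vitronectin. *Itga5* (5.70 ± 1.49 RPKM), the fibronectin receptor subunit, and *Itgb3* (5.12 ± 0.422 RPKM) overlapped in range, and *Itga9* (3.84 ± 0.0371 RPKM) was below both in every control. The other epithelial laminin receptor had little mRNA, with *Itga6* at 0.599 ± 0.119 RPKM and *Itgb4* at 1.21 ± 0.215 RPKM. *Itgb6*, which pairs with αv in epithelia, was at 0.611 ± 0.131 RPKM and *Itgb8*, another partner of αv, at 0.752 ± 0.144 RPKM. Of the collagen receptors, *Itga1* was at 0.583 ± 0.147 RPKM. *Itga2* had 0, 0 and 0 counts in the controls and 2, 1 and 3 in the knockdown, and *Itga11* 5, 0 and 0 counts in the controls and 11, 9 and 7 in the knockdown. The leukocyte subunits *Itgam* and *Itgax* had no count, and *Itgal*, *Itgb2* and *Itgad* had 14, 6 and 6.

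**Figure D1:**
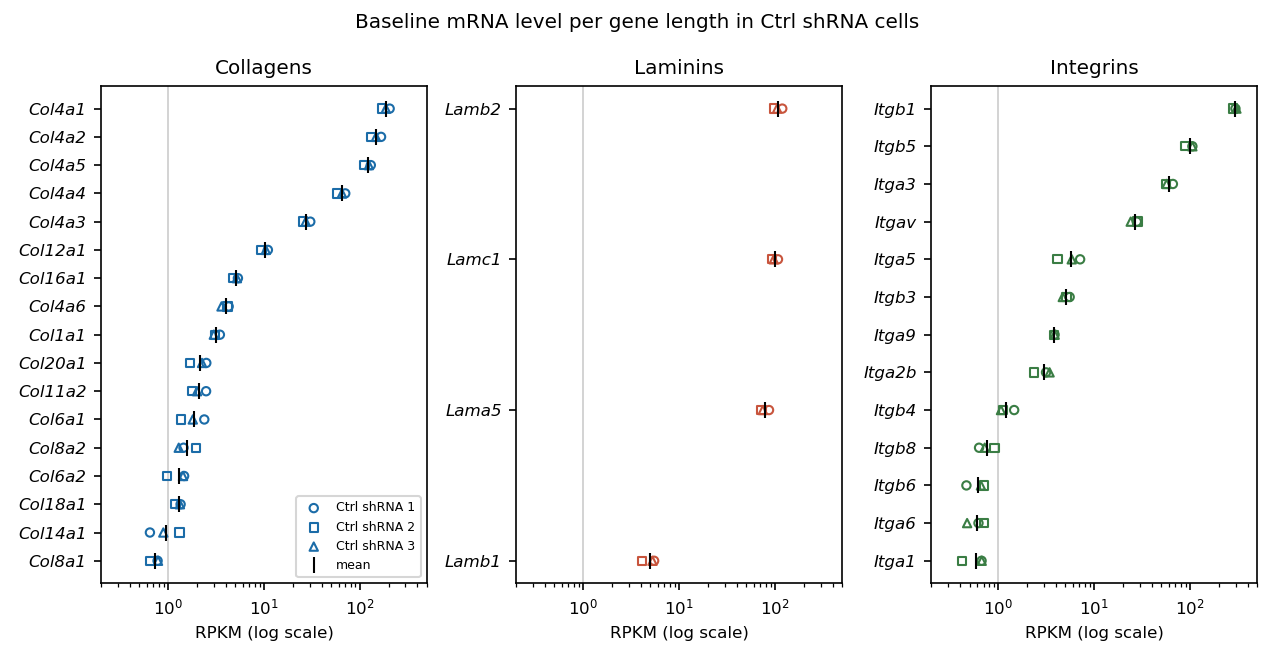
mRNA level of 34 members with a mean of at least 0.5 RPKM in the Ctrl shRNA libraries, by family. The x axis gives RPKM on a log scale, each symbol is a Ctrl shRNA library, the vertical tick is the mean of 3 and the grey line marks 1 RPKM. *Col4a1* (187 RPKM), *Lamb2* (107 RPKM) and *Itgb1* (294 RPKM) head their families, and the 3 controls lie close together except for low members such as *Itga5* and *Col6a1*, where Ctrl shRNA 2 is lowest.

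How many members were called depended on the fit. In edgeR's quasi-likelihood test on all libraries, called at 0.05 after Benjamini-Hochberg adjustment across 15307 genes, 0 of the 52 tested members were called higher and 0 lower, while 0.0588% of all genes were called higher and 0.00653% lower, so that few calls were made among any genes in this fit. At an unadjusted p under 0.05, 6 members were higher and 3 lower (7.47% and 6.65% of all genes). The 6 include *Lamc3*, which was kept for testing through its knockdown libraries alone and is not read as a difference. Without Ctrl shRNA replicate 2, edgeR called 0 members higher and 1 lower, *Itgb3* (1.11% and 0.675% of all genes). DESeq2 on all libraries called *Itga3* and *Col18a1* higher and *Itgb3* lower (1.73% and 1.25% of all genes). DESeq2 without Ctrl shRNA replicate 2, chosen after seeing the data, added *Itgb8* and *Col4a5* among the higher and *Itgb5* and *Col5a2* among the lower (3.46% and 2.44% of all genes). With limma and sample quality weights, which gave Ctrl shRNA replicate 2 a weight of 0.101, 9 members were called higher and 4 lower (8.67% and 6.34% of all genes). The other controls had weights of 0.621 (replicate 1) and 3.19 (replicate 3). The control side of this fit, and each p quoted from it below, thus rests mainly on Ctrl shRNA replicate 3. The biological coefficient of variation in edgeR was 0.263 with all libraries and 0.102 without that replicate.

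Of the 29 members at or above 1 RPKM, 28 had a log2 fold change within 0.5 of 0 in edgeR, and the exception was *Itgb3*. The same held for 9652 of 11841 genes at that level. Of all 52 tested members 42 were within 0.5, beside 11808 of 15307 genes, and the others were *Itgb3* and members at lower levels such as *Lamc3*, *Col7a1* and *Itga4*, for which 0, 2 and 1 controls but 3 knockdown libraries each reached the cutoff of the count filter, so that their estimates are not read as differences. The median log2 fold change was 0.06 for the 25 tested collagens, 0.09 for the 9 laminins and -0.01 for the 18 integrins, beside -0.01 over all genes tested. Without Ctrl shRNA replicate 2 these medians were -0.09, -0.03 and -0.08, beside -0.01, so the sign of the collagen and laminin medians turned without that library. The collagen median was also below 0 with all libraries under other settings, at -0.04 with no count filter, -0.02 with at least 10 counts in every sample and -0.01 in limma with quality weights. By group, 11 of the 52 members (21.2%) had every knockdown library above every control and 5 (9.62%) every knockdown library below, beside 14.7% and 10.7% of all genes tested. Without Ctrl shRNA replicate 2 the shares were 23.1% and 25% of the members, beside 20.4% and 17.5% of all genes. *Lamc3*, *Col7a1* and *Itga4* are among the higher members in both counts, and *Lamc3* was kept by the count filter through its knockdown libraries alone. The shares of higher members are therefore not read as an excess over all genes.

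**Figure D2:**
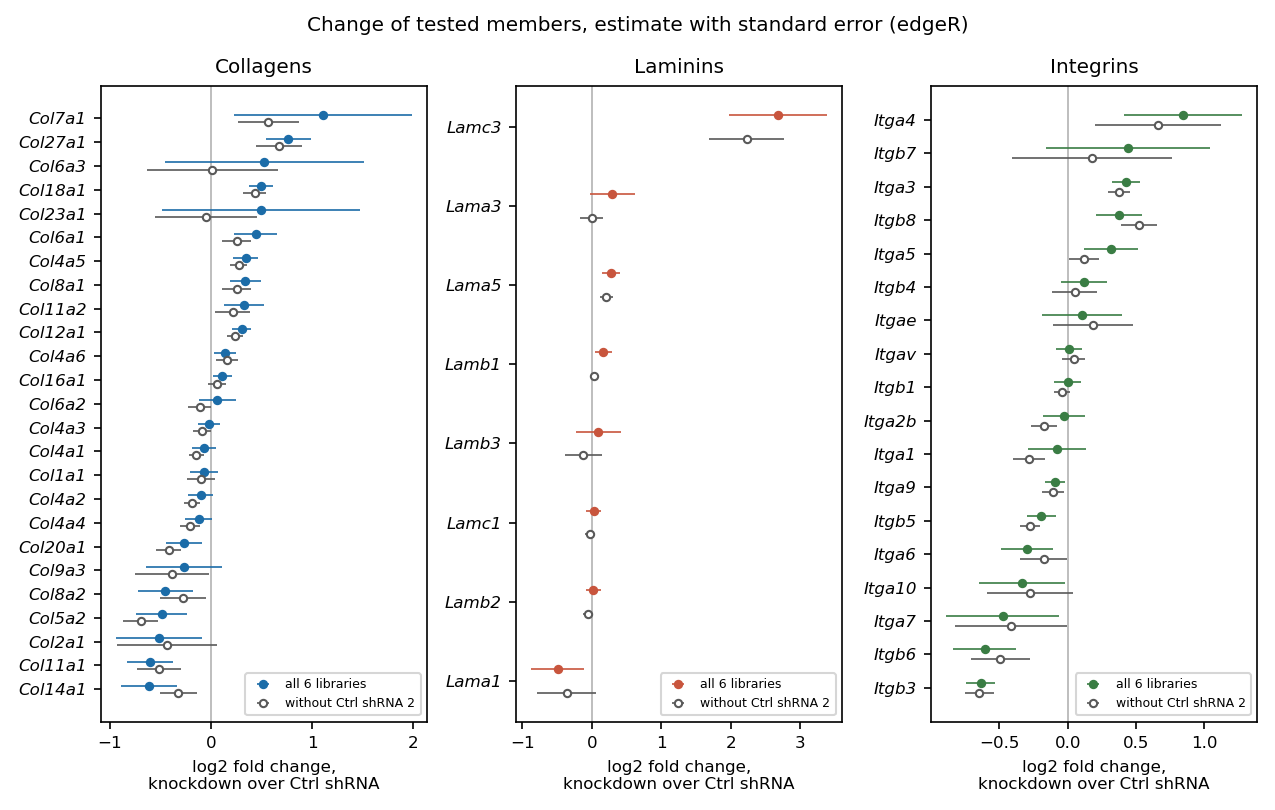
log2 fold change (knockdown over Ctrl shRNA) of 51 tested members from edgeR, by family and sorted by value. Filled points are the fit with all 6 libraries, open points the fit without Ctrl shRNA 2, and bars are ± 1 standard error. Most points lie near 0, *Itgb3* (-0.64) and *Itga3* (0.43) stand away from it with short bars in both fits, and *Lamc3*, which passed the count filter through its knockdown libraries alone, is drawn but not compared.

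The integrins held the 2 members with the lowest adjusted p, in opposite directions. *Itgb3* (ENSMUSG00000020689, chromosome 11, 104608000 to 104670476, plus strand) encodes β3, which pairs with αv as a vitronectin receptor and with αIIb in platelets. It measured 32.7, 30.2 and 27.7 CPM in Ctrl shRNA cells and 20.4, 17.8 and 20.1 CPM after knockdown. Every knockdown library was below every control, and the mean was 0.643 times that of the controls (30.2 ± 2.49 against 19.4 ± 1.44 CPM, SD, n = 3). The log2 fold change was -0.64 (standard error, SE, 0.10; Benjamini-Hochberg adjusted p = 0.174 in edgeR with all libraries). Without Ctrl shRNA replicate 2 it was -0.65 (SE 0.11; adjusted p = 0.0274 in edgeR), and with all libraries DESeq2 gave an adjusted p of 0.000251. The αIIb subunit *Itga2b* overlapped between the groups (16.2 ± 2.97 against 16.0 ± 0.755 CPM), and without Ctrl shRNA replicate 2 all knockdown libraries were lower, at a log2 fold change of -0.17 (SE 0.10; adjusted p = 0.352 in edgeR).

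*Itga3* (ENSMUSG00000001507, chromosome 11, 95044474 to 95076801, minus strand), the α3 subunit of the main epithelial laminin receptor, measured 378, 320 and 325 CPM in Ctrl shRNA cells and 458, 461 and 456 CPM after knockdown. The knockdown libraries lay within a narrow range above all controls, at 1.34 times their mean. The log2 fold change was 0.43 (SE 0.10; adjusted p = 0.251 in edgeR with all libraries). It was 0.37 without Ctrl shRNA replicate 2 (SE 0.08; adjusted p = 0.0641 in edgeR), and DESeq2 with all libraries gave an adjusted p of 0.00780. Its partner *Itgb1* stood at 1215, 1145 and 1244 CPM against 1215, 1202 and 1185 CPM, so the groups overlapped and the mean was 0.999 times that of the controls. Its log2 fold change had a standard error of 0.10 with all libraries and was -0.04 (SE 0.06) without Ctrl shRNA replicate 2.

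The αv subunit and its β partners did not share a direction. *Itgav* itself measured 299, 305 and 258 CPM in Ctrl shRNA cells and 291, 277 and 299 CPM after knockdown, with overlapping groups. *Itgb5* stood at 376, 318 and 376 CPM against 334, 304 and 298 CPM, and Ctrl shRNA replicate 2 lay within the knockdown range. Its log2 fold change was -0.19 (SE 0.11; adjusted p = 0.396 in edgeR) with all libraries and -0.28 (SE 0.07; adjusted p = 0.10 in edgeR) without that replicate, where DESeq2 gave an adjusted p of 0.00995. *Itgb6*, which with αv activates latent TGF-β in epithelia, stood at 3.29, 5.06 and 4.67 CPM against 2.45, 3.16 and 2.90 CPM. All knockdown libraries were lower, at a log2 fold change of -0.61 (SE 0.23; adjusted p = 0.347 in edgeR, 0.171 in DESeq2 and 0.0339 in limma with quality weights). Without Ctrl shRNA replicate 2 the log2 fold change of *Itgb6* was -0.49 (SE 0.22; adjusted p = 0.250 in edgeR and 0.277 in DESeq2). *Itgb8*, also a partner of αv in TGF-β activation and named after its values were seen, stood at 6.95, 10.1 and 7.95 CPM against 10.05, 10.6 and 11.6 CPM. There the knockdown libraries were above Ctrl shRNA replicates 1 and 3, and the log2 fold change was 0.37 (SE 0.17; adjusted p = 0.359 in edgeR) and 0.52 (SE 0.13; adjusted p = 0.0913 in edgeR) without Ctrl shRNA replicate 2.

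The other named integrins were called in none of the fits above. *Itga5* stood at 35.1, 20.4 and 28.7 CPM against 32.7, 38.0 and 34.3 CPM, and its log2 fold change was 0.31 with all libraries and 0.12 without Ctrl shRNA replicate 2, the lowest of the controls. *Itga9*, a subunit that binds tenascin C and other matrix ligands, stood at 29.7, 29.2 and 29.7 CPM against 26.3, 28.3 and 28.4 CPM, all lower but by a log2 fold change of only -0.09 (SE 0.08; adjusted p = 0.534 in edgeR). The largest positive estimates were at the lowest levels, *Itga4* with 0.85 (SE 0.43) at 0.291 ± 0.079 CPM and *Itgb7* with 0.44 (SE 0.60) at 0.270 ± 0.186 CPM in the controls. *Itga4* reached the cutoff of the count filter in 1 control and 3 knockdown libraries, so its estimate is not read as a difference. *Itgb7*, with 57 counts in all, was also the tested member with the fewest counts, and its log2 fold change moved to 1.19 without Ctrl shRNA replicate 1, 0.18 without either of the other controls and 0.20 without knockdown replicate 3.

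Among the collagen IV chains, *Col4a5* had the largest difference between the groups. *Col4a5* (ENSMUSG00000031274) measured 875, 754 and 837 CPM in Ctrl shRNA cells and 1068, 945 and 1112 CPM after knockdown. Every knockdown library was higher, at 1.27 times the mean of the controls, with a log2 fold change of 0.34 (SE 0.12; adjusted p = 0.339 in edgeR) and of 0.27 (SE 0.08; adjusted p = 0.137 in edgeR) without Ctrl shRNA replicate 2. DESeq2 gave an adjusted p of 0.0990 with all libraries and 0.0293 without that replicate, and limma with quality weights 0.0143. *Col4a1* stood at 1530, 1265 and 1396 CPM against 1359, 1276 and 1364 CPM, with a log2 fold change of -0.07 (SE 0.12). *Col4a2* stood at 1104, 879 and 978 CPM against 936, 872 and 952 CPM, with a log2 fold change of -0.10 (SE 0.12). Both overlapped between the groups with all libraries, and both were lower in every knockdown library than in Ctrl shRNA replicates 1 and 3. *Col4a3* and *Col4a4*, the partners of the α5 chain, had log2 fold changes of -0.02 (SE 0.11) and -0.12 (SE 0.13), and *Col4a6* one of 0.14 (SE 0.11). These small values moved with single libraries. Without Ctrl shRNA replicate 2 they were -0.14 for *Col4a1*, -0.19 for *Col4a2*, -0.09 for *Col4a3* and -0.20 for *Col4a4*. With each library left out in turn, *Col4a2* ran from -0.187 to -0.00906, the latter without Ctrl shRNA replicate 1, *Col4a4* from -0.203 to -0.0391, the latter without knockdown replicate 2, *Col4a3* from -0.0922 without knockdown replicate 3 to 0.0536 without Ctrl shRNA replicate 1, and *Col4a6* from 0.0551 without Ctrl shRNA replicate 3 to 0.215 without knockdown replicate 2.

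*Col18a1*, a basement membrane collagen whose C-terminal fragment is endostatin, measured 9.46, 8.35 and 9.31 CPM in Ctrl shRNA cells and 13.9, 12.3 and 12.1 CPM after knockdown. All knockdown libraries were higher, with a log2 fold change of 0.50 (SE 0.12; adjusted p = 0.256 in edgeR), of 0.43 without Ctrl shRNA replicate 2 (adjusted p = 0.106 in edgeR), and an adjusted p of 0.0310 in DESeq2 with all libraries. The gene overlaps *Slc19a1* on the opposite strand, which had 3101 counts against 1870 for *Col18a1*, and strand use in counting is not given in the sources used here, so its value is uncertain. *Col12a1*, named after its values were seen, stood at 167, 143 and 159 CPM against 196, 179 and 206 CPM (log2 fold change 0.31, SE 0.09; adjusted p = 0.327 in edgeR, 0.132 in DESeq2 and 0.0189 in limma with quality weights). Without Ctrl shRNA replicate 2 the log2 fold change of *Col12a1* was 0.24 (SE 0.08; adjusted p = 0.162 in edgeR). The collagens with the largest estimates were low in level. *Col7a1*, the anchoring fibril collagen, was at 0.872, 0 and 0.767 CPM against 1.24, 1.35 and 1.08 CPM, and *Col27a1* at 1.68, 1.27 and 1.36 against 2.69, 2.37 and 2.29 CPM (log2 fold change 0.77, adjusted p = 0.315 in edgeR and 0.0303 in limma with quality weights). Without Ctrl shRNA replicate 2 the log2 fold change of *Col27a1* was 0.68 (SE 0.23; adjusted p = 0.165 in edgeR). The log2 fold change of *Col7a1* was 1.11 with all libraries and 0.57 without Ctrl shRNA replicate 2, the library with no count.

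At the lower end, *Col14a1*, a FACIT collagen, stood at 4.52, 9.21 and 6.24 CPM against 4.07, 4.15 and 4.75 CPM, with Ctrl shRNA replicate 2 the highest library. Its log2 fold change was -0.62 (SE 0.28) with all libraries and -0.32 (SE 0.18) without that replicate. *Col11a1*, a minor fibrillar chain, stood at 3.97, 5.01 and 4.18 CPM against 3.19, 2.14 and 3.30 CPM, with a log2 fold change of -0.60 (SE 0.23; adjusted p = 0.35 in edgeR). *Col5a2*, another minor fibrillar chain that DESeq2 called without Ctrl shRNA replicate 2, stood at 5.01, 3.14 and 5.37 CPM against 3.06, 2.90 and 3.71 CPM, and that control lay within the knockdown range. The estimate was positive for 2 of the 6 tested fibrillar collagens and for 2 of 5 FACIT collagens, and for all 4 of the beaded and anchoring collagens (3 of 4 without Ctrl shRNA replicate 2). It was positive for 7460 of all 15307 genes tested. Among the beaded and anchoring collagens, *Col7a1* and *Col6a3* had no count in Ctrl shRNA replicate 2. Without that library *Col6a3* stood at 0.01 (SE 0.65), so these signs are not read as a difference of the class.

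Of the most abundant laminin chains, *Lamb2* and *Lamc1* stayed within the range of the controls and *Lama5* was higher in every knockdown library. *Lamb2* measured 726, 594 and 641 CPM in Ctrl shRNA cells and 666, 662 and 665 CPM after knockdown, a log2 fold change of 0.02 (SE 0.11). *Lamc1* stood at 891, 768 and 805 CPM against 840, 822 and 847 CPM, a log2 fold change of 0.03 (SE 0.10). *Lama5* (ENSMUSG00000015647) stood at 988, 822 and 851 CPM against 1006, 1183 and 1025 CPM, all higher, with a log2 fold change of 0.27 (SE 0.13; adjusted p = 0.367 in edgeR) and of 0.21 (SE 0.10; adjusted p = 0.273 in edgeR) without Ctrl shRNA replicate 2, and limma with quality weights gave an adjusted p of 0.0447. The lowest knockdown value of *Lama5* was 1006 CPM and the highest control value 988 CPM, a gap smaller than the spread within either group.

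The other laminins gave smaller counts. *Lamb1* had a log2 fold change of 0.16 (SE 0.12), which was 0.04 (SE 0.07) without Ctrl shRNA replicate 2. *Lama3* was at 4.2, 1.82 and 4.11 CPM against 3.90, 4.02 and 4.62 CPM, and its positive estimate rested on Ctrl shRNA replicate 2, the lowest library. *Lamc3*, the γ3 chain, had 4, 0 and 3 counts in the controls and 15, 17 and 19 counts in the knockdown. It passed the count filter through its knockdown libraries alone (0 controls and 3 knockdown libraries at the cutoff), so that it had to be higher there, and neither its estimate nor its p is given. It is 1 of the 9 members that limma with quality weights called higher. *Lama1*, the embryonic α chain, stood at 0.581, 0.759 and 0.558 CPM against 0.336, 0.461 and 0.539 CPM (log2 fold change -0.49, SE 0.38).

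**Figure D3:**
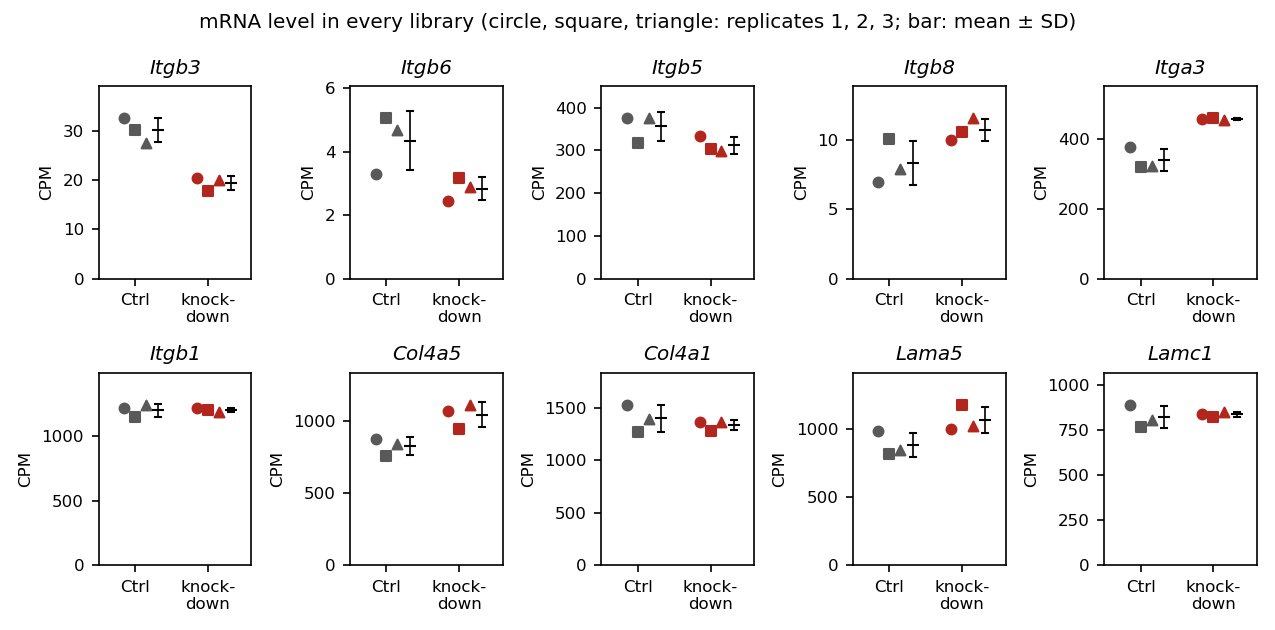
mRNA level of 10 members in each library, in CPM on a linear axis from 0. Grey symbols are Ctrl shRNA and red symbols knockdown libraries, with the shape giving the replicate and the bar the mean ± SD of 3. *Itgb3* and *Itgb6* lie lower and *Itga3* and *Col4a5* higher in every knockdown library, while *Itgb1*, *Col4a1* and *Lamc1* overlap between the groups.

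Ratios between chains of the same library do not depend on its scaling, and were computed on RPKM after the values above were seen. The *Col4a2*/*Col4a1* ratio was 0.796 ± 0.0158 (SD, n = 3) in the controls and 0.778 ± 0.00810 in the knockdown, with overlapping libraries. The *Col4a5*/*Col4a1* ratio was 0.636, 0.662 and 0.666 in the controls, Ctrl shRNA replicate 2 included, and 0.873, 0.822 and 0.905 in the knockdown. *Col4a5* thus made up 21.5%, 22.3% and 22.4% of the summed RPKM of the collagen IV chains in the controls and 27.7%, 26.8% and 27.9% in the knockdown. The shares of *Col4a1* (33.7 ± 0.0351% against 31.7 ± 0.862%), *Col4a2* (26.8 ± 0.549% against 24.7 ± 0.416%) and *Col4a4* (11.6 ± 0.0804% against 10.5 ± 0.577%) were lower in every knockdown library, and those of *Col4a3* and *Col4a6* overlapped. With 3 libraries against 3, a two-sided exact permutation test cannot give a p below 0.1, and no p is given for these ratios.

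The same was done for the integrins and laminins. The *Itga3*/*Itgb1* ratio was 0.222, 0.1995 and 0.187 in the controls and 0.269, 0.274 and 0.275 in the knockdown, with no overlap. *Itga3* took 58.9 ± 1.13% of the summed RPKM of the α subunits in the controls and 65.3 ± 0.614% in the knockdown, and *Itgav* 26.5 ± 2.43% and 21.9 ± 0.807%. The shares add up to 100%, so a larger share of *Itga3* leaves a smaller one for the others, and the CPM of *Itgav* itself overlapped between the groups. The *Itgb3*/*Itgav* ratio was 0.192 ± 0.00998 against 0.122 ± 0.00537, and the *Itgb8*/*Itgb6* ratio 1.24 ± 0.134 against 2.45 ± 0.259, each without overlap. Of the β subunits, *Itgb1* took 73.2 ± 0.984% against 75.8 ± 0.869%, *Itgb5* 24.9 ± 1.07% against 22.6 ± 0.866% and *Itgb3* 1.27 ± 0.130% against 0.848 ± 0.0599%. The *Lama5*/*Lamc1* ratio was 0.806, 0.777 and 0.769 against 0.870, 1.05 and 0.879, while *Lamb2*/*Lamc1* overlapped (1.08 ± 0.0285 against 1.08 ± 0.0143).

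**Figure D4:**
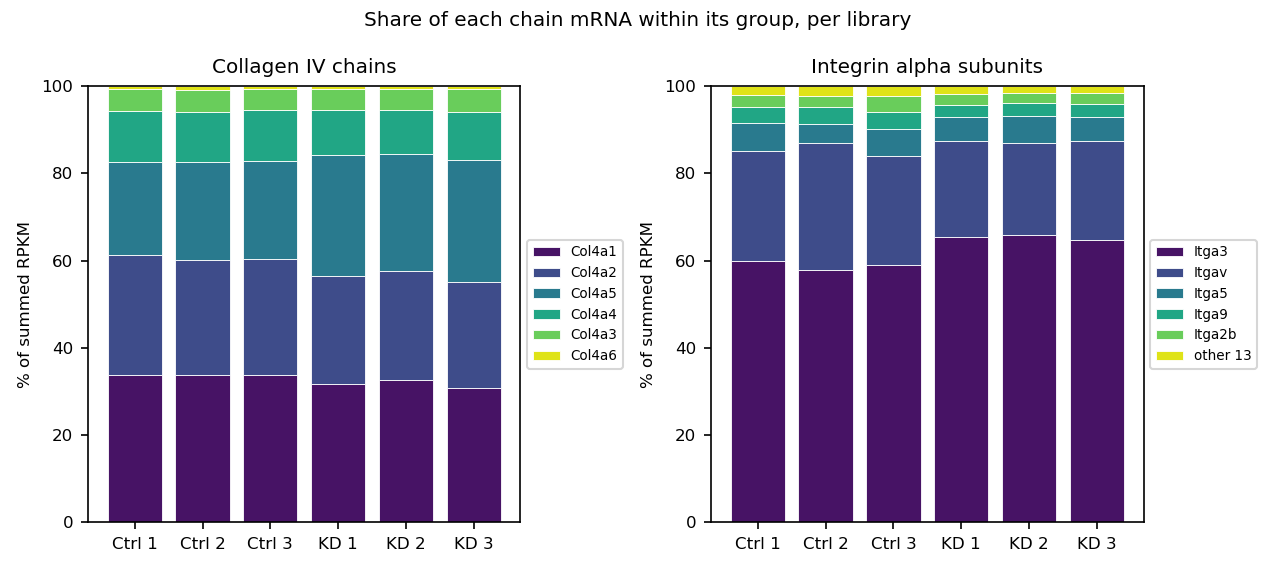
Share of each mRNA in the summed RPKM of the 6 collagen IV chains (left) and of the 18 integrin α subunits (right), in percent, for each of the 6 libraries. Each bar is a library and adds up to 100%. The *Col4a5* segment is wider in the knockdown libraries (27.5 ± 0.610% against 22.1 ± 0.535%) and the *Itga3* segment too (65.3 ± 0.614% against 58.9 ± 1.13%), while *Itgav*, whose own level overlaps between the groups, takes the smaller remainder.

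Genes that make, hold or cut these proteins were read from the same fits. Of 26 tested genes of collagen processing (such as prolyl and lysyl hydroxylases, chaperones and cross-linking enzymes), 0 were called in either direction by edgeR with all libraries, by edgeR without Ctrl shRNA replicate 2 or by DESeq2, and their median log2 fold change was 0.03 (-0.07 without that replicate). DESeq2 without Ctrl shRNA replicate 2 called 0 higher and 1 lower (3.46% and 2.44% of all genes), and limma with quality weights 1 and 3 (8.67% and 6.34% of all genes). Of 15 tested partners in the basement membrane and matrix, 1 was called higher and 1 lower by edgeR without Ctrl shRNA replicate 2 (1.11% and 0.675% of all genes) and by DESeq2 (1.73% and 1.25% of all genes), and 4 higher and 1 lower by limma with quality weights (8.67% and 6.34% of all genes). *Tnc*, which encodes tenascin C, a matrix protein of injured tissue and a ligand of α9 and αv integrins, stood at 16.5, 11.5 and 13.3 CPM against 25.7, 23.9 and 26.6 CPM (log2 fold change 0.88, adjusted p = 0.178 in edgeR with all libraries and 0.0209 without Ctrl shRNA replicate 2). *Bcam*, a laminin α5 receptor outside the integrin family, stood at 49.0, 44.04 and 43.7 CPM against 33.6, 31.9 and 29.9 CPM (log2 fold change -0.52, adjusted p = 0.178 and 0.0223). The groups did not overlap for either gene.

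Of 17 tested matrix proteases and inhibitors, 1 was called higher and 1 lower by edgeR without Ctrl shRNA replicate 2 and by DESeq2 (1.11% and 0.675%, and 1.73% and 1.25%, of all genes). DESeq2 without that replicate called 2 higher and 2 lower (3.46% and 2.44% of all genes), and limma with quality weights 3 and 2 (8.67% and 6.34% of all genes). *Plaur*, the urokinase receptor, stood at 5.43, 7.44 and 5.61 CPM against 10.2, 9.59 and 10.6 CPM (log2 fold change 0.72, adjusted p = 0.245 in edgeR and 0.0165 without Ctrl shRNA replicate 2). *Mmp17*, a membrane-anchored metalloproteinase, stood at 64.2, 52.2 and 56.7 CPM against 41.5, 42.3 and 39.6 CPM (log2 fold change -0.49, adjusted p = 0.209 in edgeR and 0.0165 without that replicate). Of 27 tested genes of the integrin adhesion core, such as talins, kindlins and paxillin, 0 were called by edgeR with or without Ctrl shRNA replicate 2 or by DESeq2. Their median log2 fold change was 0.15, and 0.04 without Ctrl shRNA replicate 2. With limma's quality weights 11 were called higher and 1 lower (8.67% and 6.34% of all genes), and DESeq2 without that replicate called 3 and 1 (3.46% and 2.44% of all genes).

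The members were long genes with many exons, and Ctrl shRNA replicate 2 differed from the other controls by gene length. The median gene length of the tested members was 7287.5 bases against 3841 bases for all genes tested, and the median of the most exons in a transcript was 33 against 8. In Ctrl shRNA replicate 2, the median log2 difference from the other controls was -0.13 for genes of 5 kb or longer and 0.05 for shorter genes. It was -0.22 for the tested collagens, -0.20 for the laminins and -0.06 for the integrins, and of the 29 members at or above 1 RPKM 25 were lower in it. In the other direction, the low members *Itgb6*, *Itgb8* and *Col14a1* and the abundant *Itgav* were highest in that library among the controls. Other low members, such as *Col7a1* and *Lama3*, were lowest in it, so level did not separate the directions. The part of gene length in the differences between the groups was not tested.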

How the data were processed

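RNA-seq of 6 MLE12 libraries was used, 3 Ctrl shRNA and 3 Idh3α shRNA + Slc25a1 shRNA, grouped by their labels. The authors deposited whole-number counts per gene without normalization, and FPKM values whose implied library size was 0.716 to 1.08 times the total count. The submitters' processing notes name HISAT2 2.0.5, StringTie 1.3.3b, featureCounts 1.5.0-p3 and mm10. Their settings and strand use are not given in the sources used here. All 81 member coordinates were identical to GENCODE M21 (GRCm38). The labels describe NEBNext Ultra paired-end libraries.

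Counts were filtered with filterByExpr, scaled by TMM and tested with the quasi-likelihood test of edgeR 4.0.16 (R 4.3.3), no covariate, with a threshold of 0.05 after Benjamini-Hochberg adjustment across the 15307 genes kept. The standard error is the log2 fold change divided by the square root of F. RPKM uses the deposited gene length. Alternatives were DESeq2 1.42.0 on the same genes, limma 3.58.1 with sample quality weights, limma on log2(FPKM + 1) or log2(FPKM + 0.1) for genes with a mean FPKM of at least 0.5, other scalings and count filters, the replicate number as a block, and each library left out. Scripts were tested on simulated data. Python 3.11.15, pandas 2.3.3 and matplotlib 3.10.9 were used. An adjusted p that DESeq2 did not give was left out of its calls.

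The members and lists were chosen with earlier results of these data known. The text names the members at the highest baseline levels (5 collagens, 5 laminins, 8 integrins), each member past the threshold in edgeR, DESeq2 or edgeR without Ctrl shRNA replicate 2, the 2 largest and 2 smallest log2 fold changes per family, and chain partners at 1 RPKM or more. A member that this rule gives is not reported here. Others are named as examples of their class or were chosen after their values were seen. Intervals and floors cover counting error only.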

Additional observations from a re-analysis of the deposited data

How the results depend on the processing

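The count of members called depended on the tool and on Ctrl shRNA replicate 2. Of all genes, edgeR called 9 higher and 1 lower with all libraries. With library size only it called 1 and 0, with no count filter 12 and 3, and with the replicate number as a block 0 and 0. DESeq2 called 265 and 192, limma with quality weights 1327 and 971, limma on log2(FPKM + 1) 6 and 2, limma on log2(FPKM + 0.1) 8 and 3, and DESeq2 without Ctrl shRNA replicate 2 543 and 383. With each library left out in turn, edgeR called 0 to 175 higher and 0 to 106 lower, with the highest counts without Ctrl shRNA replicate 2. Of the members, 0 were called higher and 0 or 1 lower when a library was left out. DESeq2 called 2 higher and 1 lower, limma with quality weights 9 and 4, and DESeq2 without Ctrl shRNA replicate 2 4 and 3. The replicate block called 0 members in either direction. Same-numbered replicates did not deviate together (correlations -0.15, -0.09 and 0.04). The deviations are from group means of 3 libraries, and Ctrl shRNA replicate 2 stood apart from its group. They therefore cannot show whether same-numbered samples were prepared together.

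Scaling by library size only shifted the median of all genes from -0.01 to 0.16, and the family medians to 0.19 (collagens), 0.22 (laminins) and 0.14 (integrins). With a library left out the medians ran from -0.09 to 0.15, from -0.03 to 0.25 and from -0.08 to 0.02, the lowest without Ctrl shRNA replicate 2 and the highest without Ctrl shRNA replicate 1. DESeq2 without Ctrl shRNA replicate 2 gave -0.09 for the collagens and -0.07 for the integrins. The number of members at baseline moved by less than 1.5 times under the FPKM values, at 0.5 or 2 RPKM and with a control left out.

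Of 444 alternative values of 29 named members tested, 32 reversed, all of them from members that no test called. With library size only the log2 fold change became 0.0882 for *Col4a1*, 0.0516 for *Col4a2*, 0.135 for *Col4a3*, 0.0312 for *Col4a4*, 0.165 for *Itgb1*, 0.0786 for *Itga9* and 0.113 for *Itga2b*. *Itgb1* was at 0.00933 with no count filter, 2.3e-05 with the replicate block, and 0.000918 and 0.000924 on log2(FPKM + 1) and log2(FPKM + 0.1). *Itgav* was at -0.00149 with median-of-ratios size factors and -0.00135 in DESeq2. DESeq2 without Ctrl shRNA replicate 2 gave -0.0465 for *Lamb2* and -0.0246 for *Lamc1*. With a library left out, the values of the members that crossed 0 ran from -0.144 to 0.00683 for *Col4a1*, from -0.0922 to 0.0536 for *Col4a3*, from -0.0437 to 0.0117 for *Itgb1*, from -0.077 to 0.0434 for *Itgav*, from -0.174 to 0.072 for *Itga2b*, from -0.051 to 0.109 for *Lamb2*, from -0.0292 to 0.0929 for *Lamc1* and from -0.00186 to 0.481 for *Lama3*. The causes were not tested. The total dose of virus, depth in low members such as *Lamc3*, and Ctrl shRNA replicate 2 limit these comparisons.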
